A study of Mus musculus with 16 samples.

Results

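The genes described here are the receptor complex through which the gut hormone FGF15 acts on hepatocytes, and genes that damp receptor tyrosine kinase signalling. Egr1, an immediate early response gene, is described with them. The 9 genes were chosen by name, as the rows of the deposited table for Fgfr4, Klb, Spry4, Spry2, Spry1, Spred1, Spred2, Dusp6 and Egr1. All 9 were present among 12618 genes. The choice was made with the comparison of the study's groups already in view. The differences of the 9 genes between the groups are therefore given as a description, without a test. Messenger RNA was sequenced in 16 mouse liver libraries, 8 labelled Cyp7a1 CRISPR and 8 labelled control CRISPR. Each library is called a liver here, though the labels do not state that each came from its own animal. Both groups ate a Western diet over 8 weeks. CRISPR editing is thus common to both groups, and Cyp7a1, the gene named as its target, encodes the enzyme that sets the rate of bile acid synthesis. The sources used here state neither strain, age nor sex, nor how the editing reagents were delivered, nor what was targeted in the controls.

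In the ileum, bile acids induce FGF15, which travels to the liver and binds FGF receptor 4 (FGFR4) together with the co-receptor beta-Klotho, the product of Klb. The active receptor signals through the docking protein FRS2, RAS and the kinases RAF, MEK and ERK, and lowers transcription of the bile acid synthesis genes Cyp7a1 and Cyp8b1. ERK activity raises the transcription of its own inhibitors, among them Sprouty and Spred proteins, which act upstream at RAS and RAF, and the phosphatase DUSP6, which removes phosphate from ERK. The level of these feedback transcripts is often read as a trace of pathway activity, while EGR1 is a transcription factor of the immediate early response to ERK.

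The livers held 19.6 to 27.4 M reads in the Cyp7a1-labelled group and 13.8 to 25.4 M in the control group (M for mega). All 12 hepatocyte markers looked at were abundant, the lowest value of any being 6905 normalized counts. One of them, Tat, which encodes the tyrosine-degrading enzyme of hepatocytes, was higher, with 38629 ± 19114 normalized counts in Cyp7a1-labelled livers and 20166 ± 5298 in controls (SD, n = 8 each; log2 difference 0.84 ± 0.24 SE, limma adjusted p = 0.0466). The differences of 10 of the 12 were above 0, and their sum spanned 1817150 to 2590820, against 1769598 to 2501989 in controls. The targeted transcript was not lower in the Cyp7a1-labelled group, with 4702 ± 1126 normalized counts, against 3587 ± 1252 in controls (SD, n = 8 each), a log2 difference of 0.43 ± 0.20 (SE) with a limma adjusted p of 0.227. A transcript level says nothing of edits within the gene, so every direction below rests on the labels. Among markers of other cell types, 0 of 11 Kupffer cell and macrophage and 0 of 10 stellate cell and fibroblast genes passed the limma threshold. None of 10 endothelial genes and of 2 lymphocyte genes tested (of 8 listed) passed it either. Of these 33 genes 3 had an unadjusted limma p under 0.05, all of them endothelial (Kdr and Eng lower, Lyve1 higher). For the 33 genes, edgeR and DESeq2 called 0 and 0. Their summed levels spanned 6318 to 24637 normalized counts in Cyp7a1-labelled livers, against 7520 to 13946 in controls, for the macrophage list, and 8584 to 15984, against 6763 to 17561, for the stellate list. For the endothelial list they spanned 12199 to 16359, against 13729 to 16895, and for the lymphocyte list 133 to 1035, against 148 to 673. Of 7 cholangiocyte genes tested (of 8 listed) Krt23 was lower, with 33.3 ± 16.6 normalized counts in Cyp7a1-labelled livers and 140 ± 47.8 in controls (SD, n = 8 each), and the list summed to 1912 to 4616, against 1688 to 4445. One liver, Cyp7a1 24, was the highest of its group in the sum of each of the 5 lists of other cell types. For the endothelial list the lead was slight, 16359 against 16333 in the next liver. Its macrophage sum of 24637 stood against at most 11839 in the other Cyp7a1-labelled livers. The level of Marco, a macrophage scavenger receptor, was 3916 in Cyp7a1 24 against at most 432 in the others of its group. The part of Krt23, Tat and this liver's marker levels in the values below was not tested. The lowest mean of any gene in the table was 13.3, so listed markers below that were not analysed here. In whole liver, fewer cells of a type and less RNA per cell cannot be told apart.

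A total of 4 of the 9 transcripts were lower in the Cyp7a1-labelled livers. Spry4, Dusp6, Spred1 and Spred2 had mean levels 26% to 69% below those of controls on the fitted scale, while the receptor pair Fgfr4 and Klb and the related inhibitors Spry1 and Spry2 differed by less than 10%. Egr1 was the one member with a higher mean by more than that. The count past the threshold of an adjusted p of 0.05 was 4 lower and 0 higher (limma over 12617 genes), where 3.05% of all genes tested were lower and 3.07% higher; since the genes were chosen with this comparison in view, nothing is read from that count. The median log2 difference was 0.02 over the 9 members and 0.0034 over all genes tested. In none of the 9 did the groups separate fully, a pattern found in 0.507% of all genes for higher and 0.531% for lower values, 1.04% together.

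**Figure D1:**
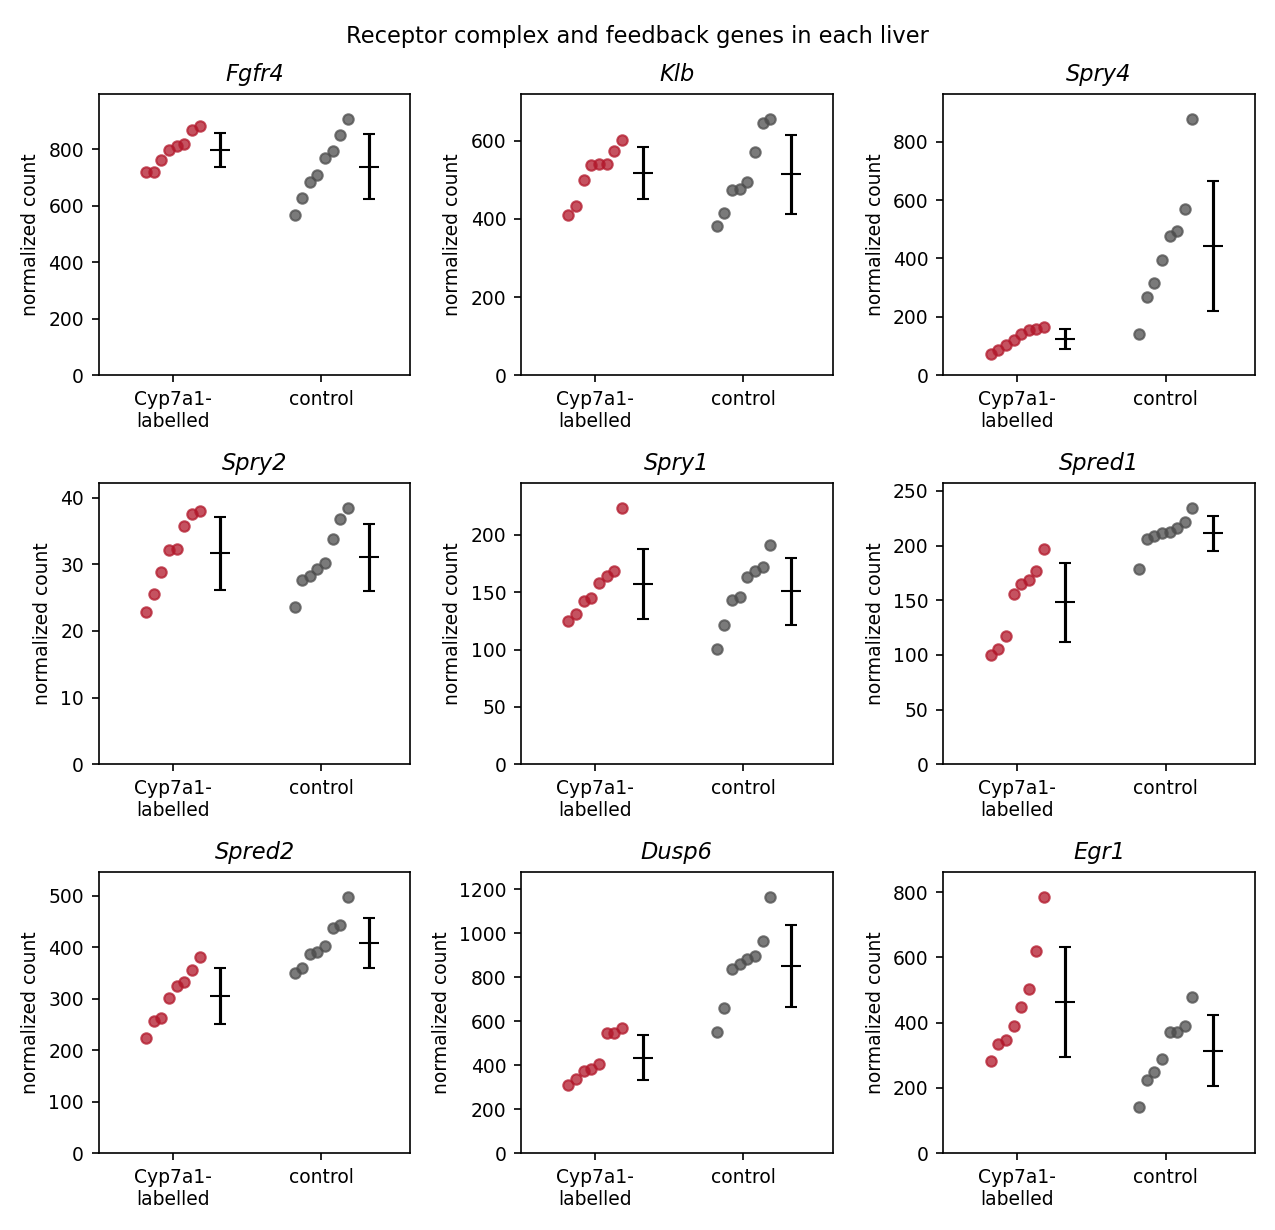
Normalized count (vertical axis, from 0) of each of the 9 genes in every liver, Cyp7a1-labelled livers in red on the left and control livers in grey on the right of each panel. Points are livers sorted by value, and the bar beside them is the mean with its SD (n = 8 each). The red points of Spry4, Dusp6, Spred1 and Spred2 lie mostly below the grey ones, and those of Fgfr4, Klb, Spry1 and Spry2 lie among them.

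The receptor genes were at like levels in both groups. Fgfr4 (ENSMUSG00000005320, chromosome 13, 55152640 to 55168759 on mm10, plus strand) encodes the receptor tyrosine kinase itself. It had 721 normalized counts in the lowest, 805 in the median and 882 in the highest Cyp7a1-labelled liver, against 567, 740 and 908 in controls. Every Cyp7a1-labelled value lay inside the control range. The log2 difference was 0.12 ± 0.08 (SE, 95% interval -0.05 to 0.30), with means of 798 ± 61.0 in Cyp7a1-labelled livers and 740 ± 114 in controls (SD, n = 8 each).

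Klb (ENSMUSG00000029195, chromosome 5, 65348314 to 65384007, plus strand) encodes beta-Klotho, which gives FGFR4 its affinity for FGF15 and serves FGF21 as well. Its lowest, median and highest values were 410, 540 and 603 normalized counts in Cyp7a1-labelled livers, against 382, 485 and 656 in controls. The Cyp7a1-labelled values again lay within the control range. The log2 difference was 0.02 ± 0.11 (SE, 95% interval -0.21 to 0.26). Within each liver the ratio of Klb to Fgfr4, as normalized counts per kilobase of exon, was 0.610 ± 0.078 in Cyp7a1-labelled livers and 0.656 ± 0.104 in controls (SD, n = 8 each).

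Sprouty proteins are membrane-associated inhibitors that are induced by, and act against, receptor tyrosine kinases. Spry4 (ENSMUSG00000024427, chromosome 18, 38586247 to 38601415, minus strand) had 73.1 normalized counts in the lowest, 131 in the median and 165 in the highest Cyp7a1-labelled liver, against 142, 436 and 878 in controls. 5 Cyp7a1-labelled livers lay below every control, and 7 of 8 controls lay above every Cyp7a1-labelled liver. The exception was Control 13, at 142, which sat within the range of the Cyp7a1-labelled livers although its Dusp6, at 859, was near the control median. The means were 125 ± 34.3 in Cyp7a1-labelled livers and 442 ± 223 in controls (SD, n = 8 each), a log2 difference of -1.69 ± 0.28 (SE). Without Control 13 the difference was -1.90, and without Control 20, the liver at 878, it was -1.52.

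The other Sprouty genes had like levels in both groups. Spry1 (ENSMUSG00000037211, chromosome 3, 37639947 to 37644598, plus strand) spanned 125 to 223 normalized counts in Cyp7a1-labelled livers with a median of 152, against 100 to 191 with a median of 154 in controls. Spry2 (ENSMUSG00000022114, chromosome 14, 105891947 to 105896819, minus strand), the least abundant member, spanned 22.9 to 38.0 with a median of 32.2, against 23.6 to 38.4 with a median of 29.8. The highest Spry1 value was that of Cyp7a1 24, without which the Spry1 difference was -0.01. Both genes overlapped almost wholly between the groups, with log2 differences of 0.06 ± 0.13 (95% interval -0.21 to 0.34) for Spry1 and 0.02 ± 0.14 (-0.26 to 0.31) for Spry2 (SE). The Spry2 values rest on 21 to 50 reads per liver, so smaller differences in this gene were not detectable at this depth.

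Setting the family members against each other within a liver removes the scaling of the library. The ratio of Spry4 to Spry1, per kilobase of exon, had a lowest, median and highest value of 0.282, 0.543 and 0.675 in Cyp7a1-labelled livers, against 0.603, 1.61 and 5.34 in controls. A total of 6 of the 8 Cyp7a1-labelled livers were below the lowest control. Per length, Spry4 was the more abundant of the pair in 0 of 8 Cyp7a1-labelled livers and in 6 of 8 controls. The ratio of Spry4 to Spry2 had a median of 1.83 in Cyp7a1-labelled livers and 5.80 in controls, with 4 of 8 Cyp7a1-labelled livers below the lowest control.

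**Figure D2:**
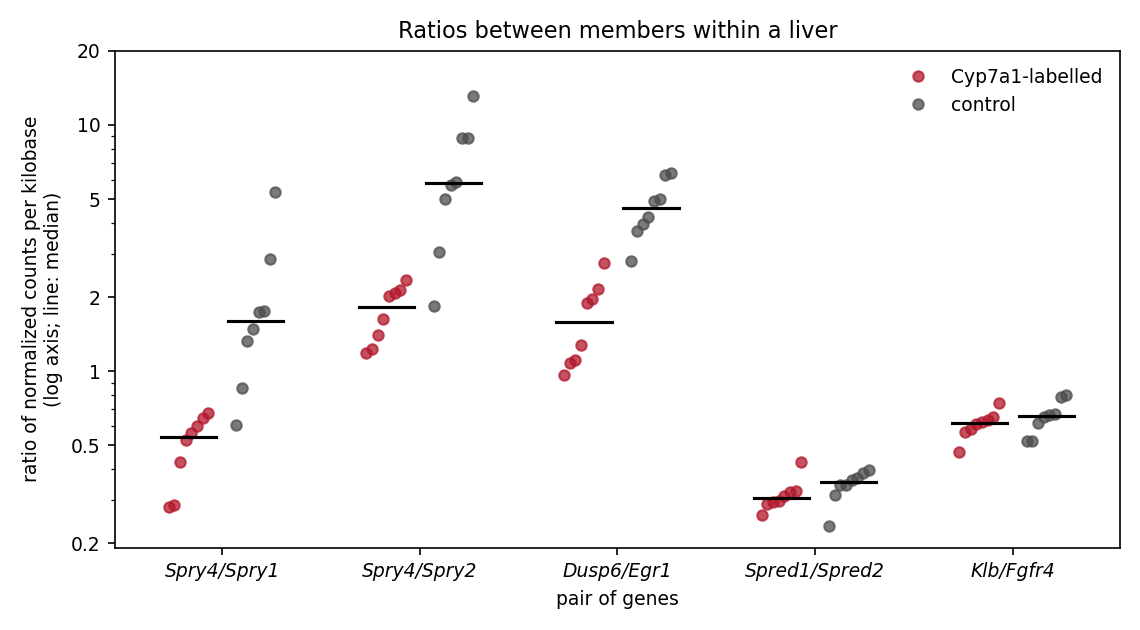
Ratio of normalized counts per kilobase of exon between pairs of members within each liver (vertical log axis), with Cyp7a1-labelled livers in red left of control livers in grey and a line at each median. The medians for Spry4 over Spry1 are 0.543 in Cyp7a1-labelled livers and 1.61 in controls, whereas those for Klb over Fgfr4 are 0.617 and 0.660.

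Spred proteins hold a Sprouty-like domain and bring the RAS inhibitor neurofibromin to the membrane. Spred1 (ENSMUSG00000027351, chromosome 2, 117121374 to 117182279, plus strand) had a lowest, median and highest value of 100, 160 and 197 normalized counts in Cyp7a1-labelled livers, against 178, 212 and 234 in controls. 7 of 8 Cyp7a1-labelled livers were below every control. Controls varied little, with a coefficient of variation of 7.57%, while that of the Cyp7a1-labelled livers was 24.2%. The log2 difference was -0.55 ± 0.13 (SE), with means of 148 ± 35.8 in Cyp7a1-labelled livers and 211 ± 16.0 in controls (SD, n = 8 each).

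Spred2 (ENSMUSG00000045671, chromosome 11, 19924375 to 20024026, plus strand) had values of 224, 314 and 382 normalized counts in the lowest, median and highest Cyp7a1-labelled liver, against 349, 396 and 498 in controls. 6 of 8 Cyp7a1-labelled livers lay below every control. The log2 difference was -0.43 ± 0.10 (SE), with means of 305 ± 53.8 in Cyp7a1-labelled livers and 408 ± 49.0 in controls (SD, n = 8 each). The Spred1 to Spred2 ratio per kilobase was 0.317 ± 0.049 in Cyp7a1-labelled livers and 0.345 ± 0.051 in controls, so the balance between the 2 genes moved by less than the spread between livers.

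Dusp6 (ENSMUSG00000019960, chromosome 10, 99263231 to 99267489, plus strand) encodes the cytoplasmic phosphatase that inactivates ERK. Its lowest, median and highest values were 311, 394 and 571 normalized counts in Cyp7a1-labelled livers, against 550, 871 and 1164 in controls. 7 of 8 livers of each group lay outside the range of the other, and the overlap came from Control 16, at 550, and Cyp7a1 2, at 571. The means were 434 ± 104 in Cyp7a1-labelled livers and 851 ± 186 in controls (SD, n = 8 each), a log2 difference of -0.97 ± 0.15 (SE).

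Dusp6, Spred1 and Spred2 were lower together, and their promoters are printed for that reason, each as the 300 bases from 250 before to 50 after the transcript start in RefSeq on GRCm38.p6 (mm10). Capitals mark CGGAA or its reverse complement TTCCG, the core bound by ETS factors that ERK phosphorylates, and in Spred2 also CGTCA, the reverse complement of TGACG, the core of the cyclic AMP response element. The Dusp6 window is chr10:99262981-99263280, that of Spred1 chr2:117120821-117121120 and that of Spred2 chr11:19924192-19924491, all on the plus strand.
Dusp6 promoter: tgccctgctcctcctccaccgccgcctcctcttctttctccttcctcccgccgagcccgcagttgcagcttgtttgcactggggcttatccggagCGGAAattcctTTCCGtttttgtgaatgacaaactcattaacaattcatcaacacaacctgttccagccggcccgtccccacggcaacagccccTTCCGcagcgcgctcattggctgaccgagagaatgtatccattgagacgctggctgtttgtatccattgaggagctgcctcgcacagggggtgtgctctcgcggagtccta
Spred1 promoter: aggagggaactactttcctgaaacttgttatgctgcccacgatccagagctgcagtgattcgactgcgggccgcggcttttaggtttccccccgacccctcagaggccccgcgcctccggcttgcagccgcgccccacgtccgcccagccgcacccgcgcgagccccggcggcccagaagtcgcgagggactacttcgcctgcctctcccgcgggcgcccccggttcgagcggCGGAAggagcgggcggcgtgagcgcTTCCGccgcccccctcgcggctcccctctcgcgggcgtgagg
Spred2 promoter: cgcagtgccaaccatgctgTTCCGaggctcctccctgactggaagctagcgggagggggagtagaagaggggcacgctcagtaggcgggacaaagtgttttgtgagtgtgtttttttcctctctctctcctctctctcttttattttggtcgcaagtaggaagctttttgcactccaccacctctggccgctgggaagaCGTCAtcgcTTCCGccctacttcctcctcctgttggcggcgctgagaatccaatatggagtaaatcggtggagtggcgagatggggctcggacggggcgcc

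The CGGAA core, which was picked after the sequences had been read, occurred 3 times in the Dusp6 window and 2 times each in those of Spred1 and Spred2. It occurred once each in the Fgfr4 and Spry2 windows and 0 times in those of Klb and Spry1. Among 32851 promoter windows of the same length, 29.9% held at least 1 match on either strand, 10.3% at least 2 and 3.60% at least 3. The core TGACG was found in the windows of Klb and Spred2 and in 20.8% of all windows. The longer ETS form CCGGAAGT (3.89% of all windows), the full site TGACGTCA (1.79%), the AP-1 site TGANTCA (7.81%), the EGR forms GCGTGGGCG (0.612%) and GCGGGGGCG (2.91%) and the CArG box bound by serum response factor (1.63%) had no match in any of the 7 member windows. No match says only that these letters are not in this window. Windows were matched for 7 of the 9 members; those of Spry4, the member with the largest fall, and Egr1 were not analysed here. The share of G and C was 57.3% in the Dusp6 window, 72.3% in that of Spred1 and 57.0% in that of Spred2, against a median of 52.7% over all windows, and the matches were not adjusted for it.

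Egr1 (ENSMUSG00000038418, chromosome 18, 34859823 to 34864984, plus strand) had a higher mean in Cyp7a1-labelled livers, unlike Spry4, Spred1, Spred2 and Dusp6. Its lowest, median and highest values were 283, 418 and 785 normalized counts in Cyp7a1-labelled livers, against 140, 329 and 477 in controls. 3 Cyp7a1-labelled livers, numbers 5, 26 and 36, lay above every control, and no Cyp7a1-labelled liver lay below every control. The log2 difference was 0.57 ± 0.24 (SE), with means of 463 ± 168 in Cyp7a1-labelled livers and 314 ± 108 in controls (SD, n = 8 each). The ratio of Dusp6 to Egr1 per kilobase ran from 0.969 to 2.74 in Cyp7a1-labelled livers and from 2.81 to 6.36 in controls, so all 8 Cyp7a1-labelled livers had a ratio below that of every control. This pair sets a gene with a lower mean against one with a higher mean. It was chosen after the values were seen, so nothing is read from its separation. The ratio of Spry4 to Fgfr4 also separated the groups, narrowly, at most 0.1444 in Cyp7a1-labelled livers and at least 0.1445 in controls. The share of all gene pairs that separate was not computed.

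Levels per length placed the members in a different order in each group. In Cyp7a1-labelled livers Fgfr4 led with 240 ± 18.3 normalized counts per kilobase of exon, followed by Dusp6 (155 ± 37.1), Klb (146 ± 18.8), Egr1 (103 ± 37.5), Spred2 (68.6 ± 12.1), Spry1 (54.1 ± 10.6), Spry4 (26.4 ± 7.21), Spred1 (21.8 ± 5.28) and Spry2 (15.2 ± 2.65). In controls Dusp6 led with 304 ± 66.4, followed by Fgfr4 (223 ± 34.2), Klb (145 ± 28.5), Spry4 (92.9 ± 46.9), Spred2 (91.7 ± 11.01), Egr1 (70.0 ± 24.1), Spry1 (51.9 ± 10.1), Spred1 (31.1 ± 2.36) and Spry2 (14.9 ± 2.38; all SD, n = 8). Neighbours closer than the larger of their SDs were Dusp6 and Klb, Egr1 and Spred2, and Spry4 and Spred1 in Cyp7a1-labelled livers. In controls they were Spry4 and Spred2, Spred2 and Egr1, and Egr1 and Spry1. In this order Spry4 stood between Spry1 and Spred1 in Cyp7a1-labelled livers and between Klb and Spred2 in controls.

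Livers of one group differed most in Spry4 and Egr1. The SD of log2 values within a group, 0.63 for Spry4 and 0.53 for Egr1, exceeded that of 97.0% and 94.7% of all genes tested, while that of Fgfr4, 0.18, lay at the 51.4th percentile. Cyp7a1 19 had the lowest value of all 16 livers for 5 members, Spry4, Spry2, Spred1, Spred2 and Dusp6, and the highest Cyp8b1 level, 30840 normalized counts. Control 20 had the highest value for Spry4, Spred1 and Dusp6, the lowest for Spry1, and the lowest Cyp8b1 level, 8555. Cyp7a1 19 was the least deep liver of its group, with 19.6 M reads, and Control 20 had 21.2 M; the part of depth in these values was not tested.

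The relations between members were then examined within each group of 8 livers. They do not use the comparison between the groups that was in view when the members were chosen. Over 126 relations, all pairs of members and each member with Cyp7a1, Cyp8b1 and Nr0b2 in each group, 0 passed the Benjamini-Hochberg threshold of 0.05 by two-sided exact permutation of Pearson's r, and 14 had an unadjusted p under 0.05. For Spearman's rho the counts were 0 and 15. Over 126 relations some p under 0.05 arise by chance alone. Cyp8b1, the sterol 12-alpha-hydroxylase that FGF15 signalling represses, and Nr0b2, which encodes the repressor SHP and is induced by the bile acid receptor FXR, are outputs of the same axis. Not all 14 are described below. They included Fgfr4 with Spry1 in Cyp7a1-labelled livers (r = -0.86, exact permutation p = 0.00273, adjusted p = 0.152, rho -0.93). In controls they included Dusp6 with Nr0b2 (r = 0.87, exact permutation p = 0.00667, adjusted p = 0.168) and Klb with Cyp7a1 (r = 0.83, p = 0.0141, adjusted p = 0.186). Spred1 and Dusp6 had r of -0.80 with Cyp7a1 in Cyp7a1-labelled livers.

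Spred1 and Cyp8b1 had r below 0 in both groups, and neither value passed the adjustment. In Cyp7a1-labelled livers r was -0.88 (exact permutation p = 0.00484, adjusted p = 0.152) and rho -0.95 (p = 0.00114, adjusted p = 0.115), and in control livers r was -0.92 (p = 0.00117, adjusted p = 0.147) and rho -0.90 (p = 0.00456, adjusted p = 0.115, n = 8 each). Without the 2 livers farthest from the median Spred1 level r was -0.69 in Cyp7a1-labelled livers and -0.69 in controls. With libraries scaled to equal totals it was -0.93 (exact permutation p = 0.00062, adjusted p = 0.0781) and -0.53 (p = 0.169, adjusted p = 0.467). Control 38, the least deep liver, had the lowest Spred1 (178) and the highest Cyp8b1 level (13808) of the controls. The relation kept its sign and did not pass the adjustment, and in controls its unadjusted p depended on the scaling.

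Dusp6 and Cyp8b1 also had r below 0 in both groups, and again neither value passed the adjustment. The r was -0.85 in Cyp7a1-labelled livers (exact permutation p = 0.00898, adjusted p = 0.179; rho -0.76, p = 0.0368, adjusted p = 0.309) and -0.82 in controls (p = 0.0148, adjusted p = 0.186; rho -0.76, p = 0.0368, adjusted p = 0.309, n = 8 each). Without the 2 livers farthest from the median these r values were -0.84 and -0.91. With libraries scaled to equal totals they were -0.81 (exact permutation p = 0.0159, adjusted p = 0.285) and -0.72 (p = 0.0517, adjusted p = 0.290). For Spry4 and Cyp8b1 the unadjusted p was not under 0.05 either, with r of -0.47 in Cyp7a1-labelled livers and -0.13 in controls (rho -0.33 and -0.26; exact permutation p = 0.242 and 0.761 for r, 0.428 and 0.536 for rho, adjusted p = 0.546 and 0.851 for r, 0.749 and 0.795 for rho). Without the 2 farthest livers these values were 0.62 and -0.0007, so the negative sign in Cyp7a1-labelled livers rested on those livers.

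**Figure D3:**
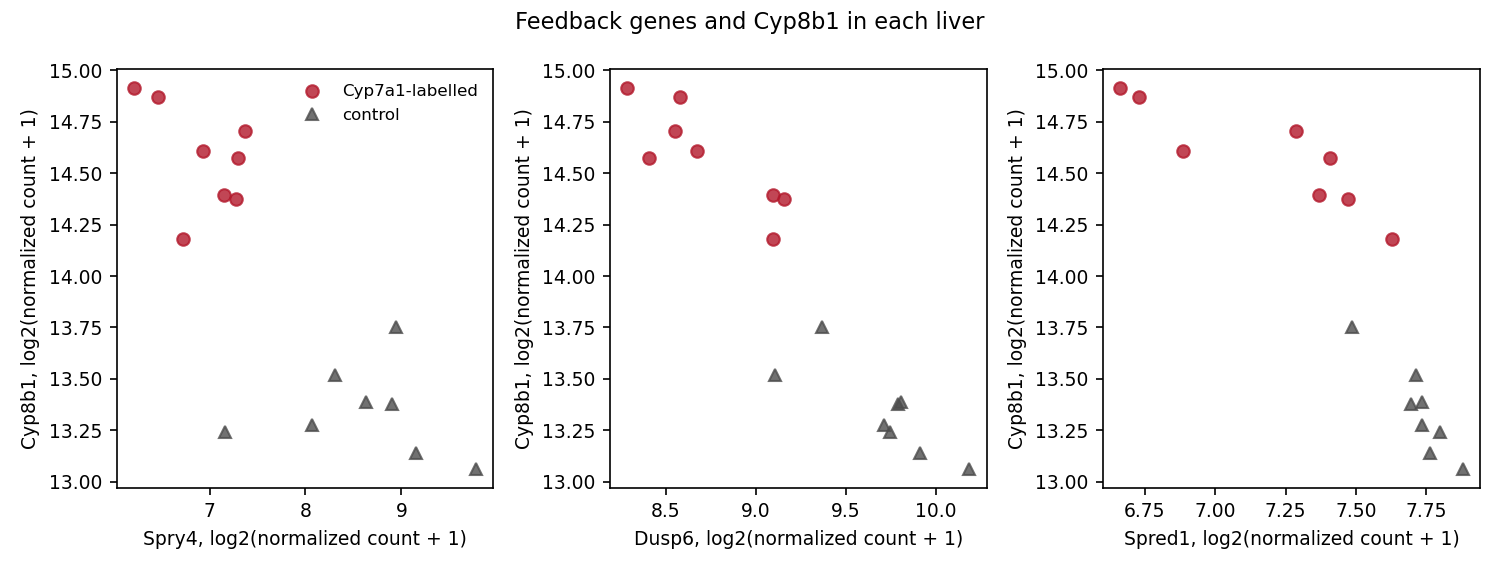
Cyp8b1 level against that of Spry4, Dusp6 and Spred1 in each liver, both axes as log2(normalized count + 1), with Cyp7a1-labelled livers as red circles and control livers as grey triangles. The groups form separate clouds in each panel. Within the clouds r is -0.85 and -0.82 for Dusp6 and -0.88 and -0.92 for Spred1 in Cyp7a1-labelled and control livers. None of these values passes the adjustment, and with libraries scaled to equal totals r for Spred1 in controls is -0.53.

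Among the 4 members that were lower, the 6 pairwise r values within Cyp7a1-labelled livers were all above 0, from 0.34 to 0.88 with a median of 0.68, while over all 36 pairs of members 22 were above 0 with a median of 0.34. Without the 2 livers farthest from the median, Spry4 with Dusp6 turned to -0.40 and Spry4 with Spred1 to -0.02, so these 2 rested on those livers, and the other 4 stayed above 0. Cyp7a1 19 was the lowest liver in all 4 genes. The positive sign was not particular to the 4 lower genes. In Cyp7a1-labelled livers r with each of the 4 was 0.47 to 0.68 for Spry2, 0.01 to 0.60 for Spry1 and 0.16 to 0.52 for Egr1. Fgfr4 and Klb had r below 0 with each of the 4. Within controls the 6 values among the 4 lower genes ran from -0.43 to 0.65 with a median of 0.15, and 4 of 6 were above 0. The difference between the groups in these relations was not tested. The highest was Spry4 with Spred2 in Cyp7a1-labelled livers (r = 0.88, exact permutation p = 0.00439, adjusted p = 0.152; rho 0.79, p = 0.0279, adjusted p = 0.309; r = 0.69 without the 2 farthest livers). In controls the closest relation of Spry4 was with Klb (r = 0.82, p = 0.00995, adjusted p = 0.179; rho 0.90, exact permutation p = 0.00456, adjusted p = 0.115; r = 0.98 without the 2 farthest livers).

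**Figure D4:**
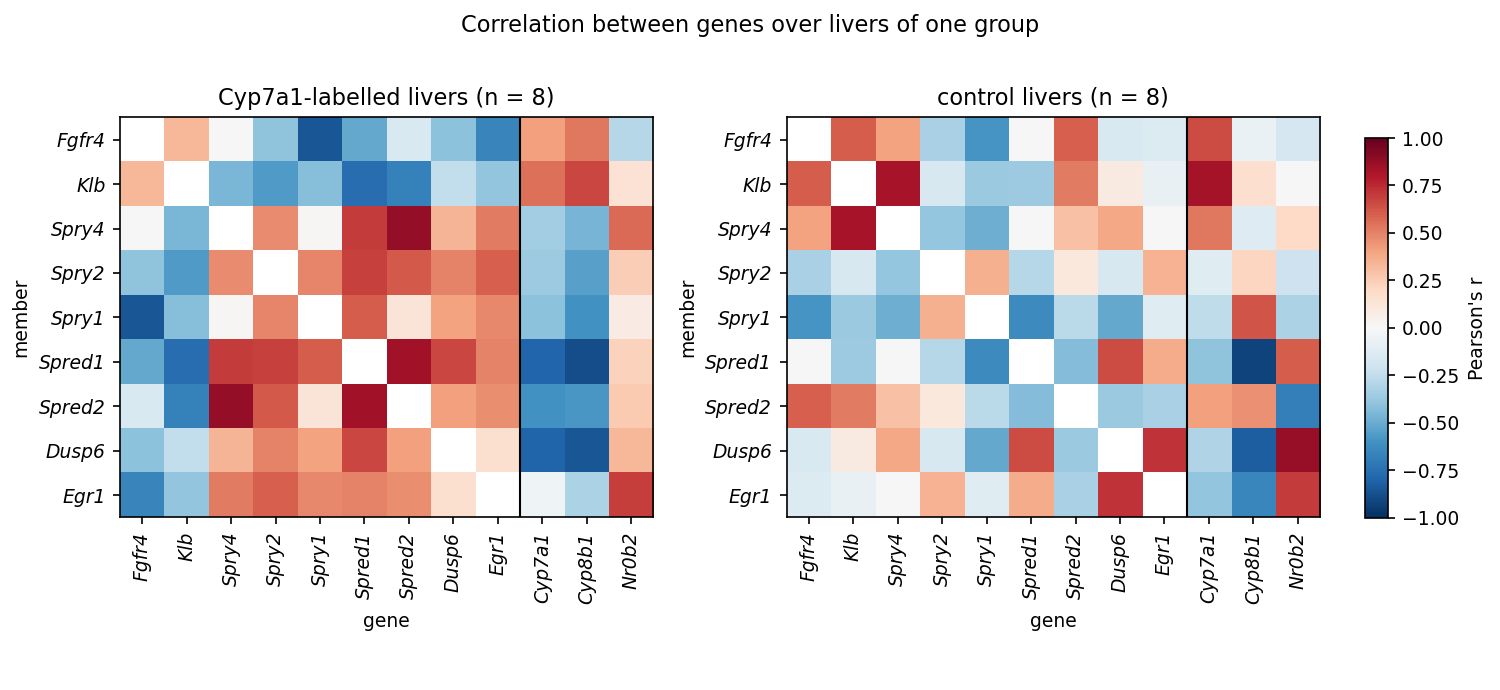
Pearson's r (colour) between each member and every other member, and with Cyp7a1, Cyp8b1 and Nr0b2 right of the line, over 8 Cyp7a1-labelled livers on the left and 8 control livers on the right. Spry4, Dusp6, Spred1 and Spred2 have r of 0.34 to 0.88 with each other in the left panel and -0.43 to 0.65 in the right one. Spry1, Spry2 and Egr1 also have r above 0 with each of these genes in the left panel.

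The genes whose variation within groups was most like that of a member were found over 16 livers after subtracting each group's mean, among 10376 genes. For Spry4 they were Fam208a (r = 0.90), Cds2 (0.88), Trim65 (0.87) and Foxk1 (0.87). For Dusp6 they were Pcgf1 (0.94), Cenpl (0.88), Mblac2 (0.87) and Ssr1 (0.87). For Egr1 they were Tmem175 (0.79), Plekhf1 (0.79), Nhsl1 (0.76) and Cad (0.76). The median r over all candidates was 0.0016 for Spry4, -0.0047 for Dusp6 and -0.01 for Egr1; the livers share libraries and depth, and the highest of so many values are given as a description.

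The rest of the pathway was tested in the fit across all genes, with 6.12% of all genes called in either direction. Of 78 pathway genes tested that are not members, 2 were higher and 4 lower, a share of calls close to that background, and their median log2 difference was 0.02. Cyp8b1 was among the higher genes, and Nr0b2, Dusp4, Lrig1 and Fgfrl1 were the lower ones.

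Of the FGF ligands, 2 of 13 listed were tested and 0 passed by limma, edgeR or DESeq2, with 2 at an unadjusted p under 0.05 by limma, and Fgf15 itself was not analysed here. Fgf21, a fasting hormone made by hepatocytes that also signals through beta-Klotho, had a lowest, median and highest value of 88.6, 142 and 248 normalized counts in Cyp7a1-labelled livers, against 10.5, 87.8 and 194 in controls. The log2 difference of 1.13 ± 0.44 (SE) did not pass the threshold (limma adjusted p = 0.145). Fgf1, a growth factor that binds all FGF receptors, averaged 3295 ± 933 in Cyp7a1-labelled livers and 4379 ± 847 in controls (SD, n = 8 each; log2 difference -0.44 ± 0.17 SE, limma adjusted p = 0.129).

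Of 10 other receptors tested, 1 was lower and 0 higher. Fgfrl1, an FGF receptor that lacks the kinase domain, averaged 988 ± 64.1 normalized counts in Cyp7a1-labelled livers and 1149 ± 112 in controls (SD, n = 8 each), with 8 of 8 Cyp7a1-labelled livers below the control mean. Its log2 difference was -0.21 ± 0.06 (SE, limma adjusted p = 0.0432), and the call was kept only without Cyp7a1 26, Control 13, Control 20 or Control 35; leaving out any of the other 12 livers ended it, with adjusted p of up to 0.0812. Scaling to equal totals also ended it (adjusted p = 0.0817).

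Among 17 further feedback genes 2 were lower and 0 higher. Dusp4, a nuclear phosphatase of the same family as Dusp6, had a lowest, median and highest value of 22.7, 30.1 and 40.3 normalized counts in Cyp7a1-labelled livers, against 37.1, 40.7 and 57.5 in controls. Its log2 difference was -0.53 ± 0.14 (SE, limma adjusted p = 0.0311). Lrig1, a membrane protein that promotes the degradation of ErbB receptors, averaged 458 ± 24.8 in Cyp7a1-labelled livers and 526 ± 37.2 in controls (SD, n = 8 each; log2 difference -0.20 ± 0.05 SE, limma adjusted p = 0.0263). Both were below the control mean in 8 of 8 Cyp7a1-labelled livers. The Dusp4 call ended without Cyp7a1 5, 17, 28 or 36 or Control 13, 20 or 35 (adjusted p of up to 0.0580), and that of Lrig1 without Cyp7a1 28 (0.0516) or Control 25 (0.0507).

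Of 19 genes of the transcriptional response to ERK, 0 passed in either direction by limma, with 4 at an unadjusted p under 0.05, and 0 by edgeR or DESeq2. Etv5, an ETS factor induced by FGF signalling in other tissues, had a lowest, median and highest value of 33.3, 58.3 and 111 normalized counts in Cyp7a1-labelled livers, against 67.9, 84.2 and 112 in controls. Its log2 difference was -0.50 ± 0.19 (SE, limma adjusted p = 0.136), and it passed without Cyp7a1 24, the liver at 111 that also led in macrophage markers (-0.62, adjusted p = 0.0328). Myc, a growth-promoting transcription factor, had a log2 difference of 1.02 ± 0.44 (SE, limma adjusted p = 0.188); Cyp7a1 36 held 2010 normalized counts, against 240 to 669 in the other Cyp7a1-labelled livers and 105 to 626 in controls.

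Of 9 genes of bile acid output 1 was higher and 1 lower. Cyp8b1 had a lowest, median and highest value of 18559, 24677 and 30840 normalized counts in Cyp7a1-labelled livers, against 8555, 10270 and 13808 in controls (log2 difference 1.23 ± 0.11 SE, limma adjusted p = 3.79e-06). Nr0b2 had 90.5, 133 and 269, against 359, 598 and 785 (log2 difference -1.95 ± 0.21 SE, limma adjusted p = 4.25e-05). Both separated the groups fully, unlike any of the 9 members.

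**Figure D5:**
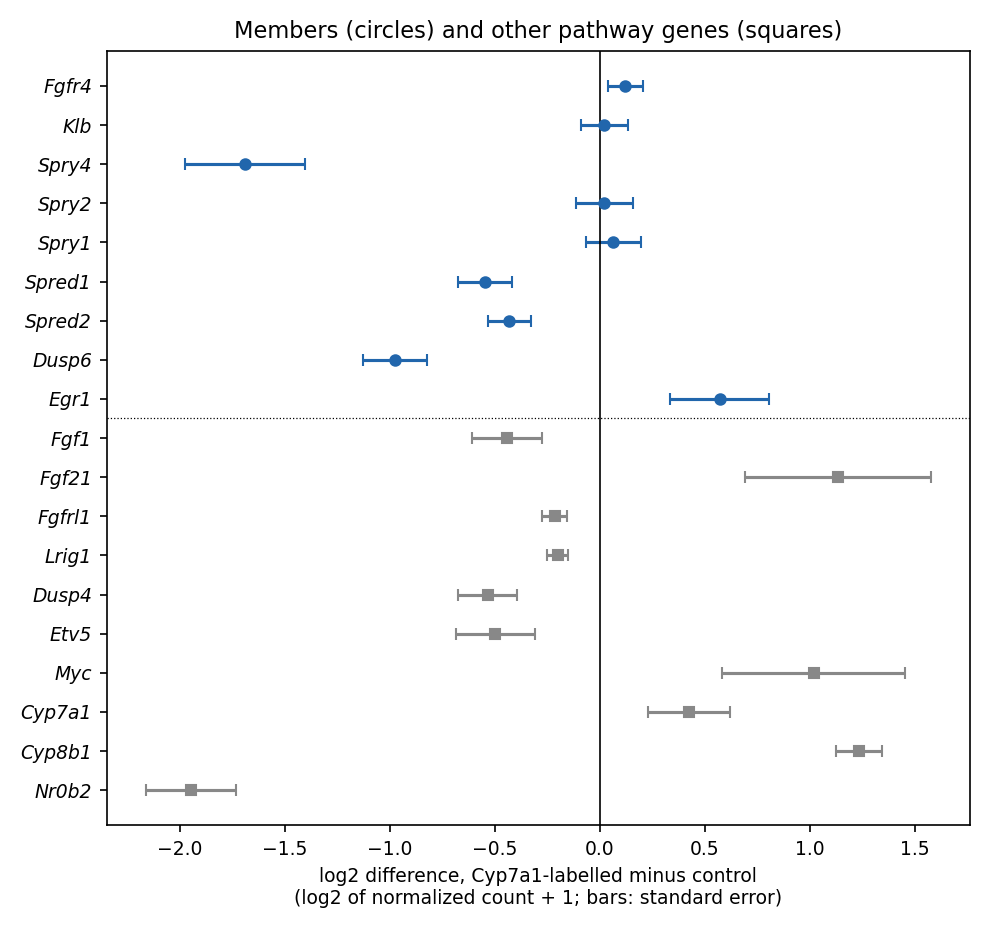
Log2 difference, Cyp7a1-labelled minus control, on the log2(normalized count + 1) scale (horizontal axis, bars are standard errors, 8 livers a group), for the 9 members (blue circles above the dotted line) and the pathway genes named in the text (grey squares). Spry4 lies at -1.69 and Dusp6 at -0.97, while Fgfr4, Klb, Spry1 and Spry2 lie between 0.02 and 0.12.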

How the data were processed

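Liver libraries, 8 labelled Cyp7a1 CRISPR and 8 labelled control CRISPR, were compared. The labels do not tie libraries to animals, so p-values here cover only the spread among libraries, which may be technical. No pair of libraries within a group was identical or within sampling noise. The authors deposited a signal, normalized counts per gene, in 1 table. The tools named in the submitters' processing notes, with no role or order, are STAR 2.7.11a, Trim Galore 0.6.10, R 3.6.3, DESeq2 and featureCounts, and the build is mm10. Strand setting, annotation release and gene filter: not given in the sources used here. Where genes overlap, their reads can therefore not be told apart.

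Values were whole multiples of 1 read in each library (99.94% to 99.99% within 0.05 reads), which gave reads for depth and for count tests. One gene with text in a cell was left out. The main test was limma 3.58.1 (R 4.3.3; lmFit, eBayes with trend) on log2(value + 1), two-sided, Benjamini-Hochberg adjusted over 12617 genes; this scale understates changes of low genes. A minimum mean of 10 removed no gene. Relations within a group used all pairings of 8 livers. Lengths are merged exons of GENCODE M21 (basic set). Promoter sequences are from RefSeq (GRCm38.p6).

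The members and gene lists were chosen with earlier results of these data known. Named genes were all members, Cyp7a1, Cyp8b1, Nr0b2, up to 4 genes per pathway list past the threshold or 2 where none passed, and the 4 genes most like Spry4, Dusp6 and Egr1 with a mean of at least 50; predicted and identifier-only genes were passed over. One gene that this rule names is not reported here. Tried as alternatives were leaving the filter out, raising it to a mean of 50, a pseudocount of 8, quantile normalization, equal totals, edgeR 4.0.16, DESeq2 1.42.0 and leaving out each library. The steps were tested on simulated data.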

Additional observations from a re-analysis of the deposited data

Results flagged for a closer look

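In 66 groups of 8 livers looked at, for 32 genes and for depth, 2 held a liver whose gap to its nearest neighbour was large against the range of its group by Dixon's 95% criterion; chance gives such a liver in about 1 group in 20. Spred1 in Control 38 was 178 normalized counts, against 206 to 234 in the other controls; this liver is also the least deep, with 13.8 M reads, and its part in the value was not tested. Etv5 in Control 20 was 112 normalized counts, against 67.9 to 86.0 in the other controls.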

How the results depend on the processing

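No paired analysis was possible because the 2 groups share no replicate numbers. The direction of Spry4, Dusp6, Spred1 and Spred2 held under each alternative run and without any 1 library. Their log2 differences ranged from -1.90 to -1.52 for Spry4, -1.06 to -0.90 for Dusp6, -0.61 to -0.47 for Spred1 and -0.48 to -0.37 for Spred2, and the differences of the 9 members moved by less than the spread between livers throughout. Spry2 was not tested with a minimum mean of 50. Over all genes, leaving out 1 library gave 230 to 399 genes higher and 245 to 414 lower, against 387 and 385; the lowest counts were without Cyp7a1 28, and 256 were lower without Control 16. With DESeq2 548 were higher and 573 lower. Of the pathway genes that are not members, 1 to 3 were higher and 1 to 5 lower without 1 library, against 2 and 4; quantile normalization gave 4 higher and DESeq2 5. The cause of these shifts was not tested. Of 126 relations within a group, 0 passed with a pseudocount of 8 or equal totals. Of 594 recomputed values, 540 stayed on the same side of the threshold or within the spread, 51 lost and 3 gained a call or a count, and 0 changed sign where a direction was called. Few reads limit the precision of low genes, such as Spry2 with 21 to 50, Dusp4 with 25 to 59 and Fgf21 with 10 to 227 per liver.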
